A study of Mus musculus with 10 samples.

Results

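Receptor tyrosine kinases are cell surface proteins that bind a ligand outside the cell and phosphorylate themselves and other proteins inside it. 10 of their genes, Mst1r, Met, Kit, Axl, Mertk, Erbb3, Egfr, Pdgfra, Pdgfrb and Fgfr1, of the 55385 gene identifiers in the files, are described here in the mouse melanoma line WT31 and in its subline WT31_P5IV. The genes were named by symbol as a list, and the difference between the lines in these same libraries was known when they were listed. They were thus chosen by values of the contrast described here, their levels in WT31_P5IV against WT31, so that difference is given as a description and without a test. RNA was sequenced from cultured cells in 5 libraries of each line. WT31 came from a melanoma of Tyr::NrasQ61K/°; INK4a−/− mice, so both lines carry the mutant Nras transgene, which the tyrosinase promoter drives in pigment cells, and lack INK4a. WT31 is the parental line without passaging in mice. WT31_P5IV was obtained from it by 5 rounds of intravenous injection, growth in the liver and recovery into culture, and it is 1 such subline. Neither line was given a drug, and RNA was taken from cultured cells rather than metastatic tissue. The libraries are labelled as biological replicates of each line, and p-values below measure the spread between these cultures, not between independent derivations of a subline. Each library held 24255389 to 25750639 estimated counts, so 3 counts, taken as the limit of detection, corresponded to 0.114 to 0.129 CPM (counts scaled to the size of the library after TMM scaling). These limits cover counting error only.

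In melanocytes, Kit is the receptor for stem cell factor and is needed for migration and survival during development. Met binds hepatocyte growth factor (Hgf), which stromal cells of the liver make, and Mst1r, also called Ron, is its closest relative and binds macrophage stimulating protein (Mst1), which hepatocytes secrete into the blood. Axl, Mertk and Tyro3 form the TAM family, whose ligands Gas6 and Pros1 bridge the receptors to phosphatidylserine. Erbb3 has little kinase activity of its own, binds neuregulins and signals in pairs with Erbb2 or Egfr. In melanoma, high Axl and Egfr are commonly described with low levels of pigment genes.

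Mst1r lies on the forward strand of chromosome 9 (chr9:107906873-107920383, GRCm38, GENCODE M21; ENSMUSG00000032584.12). Its promoter is shown because Mst1r had the largest difference of the 10 receptors, and a second window because RefSeq gives Mst1r another start, inside intron 10 of the full-length transcript, at which a short transcript model of the gene also begins (see the paragraph on transcript models). The windows of Met and Axl are shown as those of the closest relative of Mst1r and of the only described receptor with a clearly lower level in WT31_P5IV. Each window runs from 250 bases before to 50 bases after a RefSeq start, 5′ to 3′ on the gene's strand (GRCm38.p6, sequences from RefSeq). Capitals mark matches, on either strand, to the motifs searched, which were CACGTG (a palindromic E-box), CATGTG (the core of the M-box), ACAAAG (a core of Sox sites), TGACTCA (the AP-1 motif) and GGGCGG (the GC box). No match of 2 different motifs overlapped.
Mst1r, chr9:107906639-107906938, forward strand: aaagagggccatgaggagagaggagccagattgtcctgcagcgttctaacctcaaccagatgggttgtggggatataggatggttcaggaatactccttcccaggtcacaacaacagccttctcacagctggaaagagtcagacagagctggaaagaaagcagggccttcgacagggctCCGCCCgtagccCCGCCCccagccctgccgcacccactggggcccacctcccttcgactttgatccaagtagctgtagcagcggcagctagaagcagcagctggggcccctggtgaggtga
Mst1r internal start, chr9:107914753-107915052, forward strand: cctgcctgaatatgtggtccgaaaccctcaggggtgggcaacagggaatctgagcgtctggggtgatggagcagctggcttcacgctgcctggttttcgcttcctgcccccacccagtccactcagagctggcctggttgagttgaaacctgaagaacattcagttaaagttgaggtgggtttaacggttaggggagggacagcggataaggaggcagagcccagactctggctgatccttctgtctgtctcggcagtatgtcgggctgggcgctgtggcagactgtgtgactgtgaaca
Met, chr6:17463707-17464006, forward strand: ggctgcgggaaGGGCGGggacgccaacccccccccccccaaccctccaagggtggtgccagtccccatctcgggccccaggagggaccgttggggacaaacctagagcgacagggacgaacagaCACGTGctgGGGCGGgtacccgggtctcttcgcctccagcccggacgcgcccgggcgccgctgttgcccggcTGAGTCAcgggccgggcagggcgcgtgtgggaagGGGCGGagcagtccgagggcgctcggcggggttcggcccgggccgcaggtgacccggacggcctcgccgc
Axl, chr7:25788684-25788983, reverse strand: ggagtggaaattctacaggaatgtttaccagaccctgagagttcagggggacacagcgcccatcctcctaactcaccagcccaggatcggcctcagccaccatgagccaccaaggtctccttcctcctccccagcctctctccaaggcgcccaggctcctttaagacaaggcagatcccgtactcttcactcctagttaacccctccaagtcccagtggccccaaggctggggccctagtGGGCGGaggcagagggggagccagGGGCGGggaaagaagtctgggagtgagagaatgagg

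The first Mst1r window held 2 matches of GGGCGG, the GC box, and none of the other motifs, and the window of the internal start held no match. Met had 3 matches of GGGCGG, 1 of CACGTG, the palindromic E-box that Mitf and related factors can bind, and 1 of TGACTCA, the AP-1 motif. Axl had 2 matches of GGGCGG. Of 32817 windows of the same length over the genome, 35.6% held GGGCGG, 7.15% CACGTG, 14.2% CATGTG, 18.7% ACAAAG and 5.20% TGACTCA. The Met window was rich in G and C at 75.7%, against 59.0% for the first Mst1r window and 60.3% for Axl. Windows were found for 7 of the 10 receptors, among them Kit with 1 match of GGGCGG, Mertk with 4, Egfr with 1 and Pdgfra with none. Erbb3, Pdgfrb and Fgfr1 had none in the table. A match describes the letters of the window and is not evidence of binding.

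Before the receptors were compared, the identity of the cells was checked against marker genes. All 7 melanocyte markers were detected at high levels, with a summed level of 17050 to 18440 CPM in WT31 and 22230 to 25730 CPM in WT31_P5IV. The markers did not move together. Pmel, Tyr and Dct were higher in WT31_P5IV, Mlana and Mitf were not called, Sox10 was lower, and the pigment enzyme gene Tyrp1 was lower, with means of 3041 ± 49.7 and 1564 ± 71.9 CPM (SD, n = 5 each, log2 fold change -0.96 ± 0.04 SE, adjusted p = 3.50e-11, edgeR). Of the 8 macrophage and leukocyte markers, 6 had no more than 3 counts in any library, and the summed level was 0.833 to 2.22 CPM in WT31 and 3.56 to 5.08 CPM in WT31_P5IV. Cd68, a lysosomal protein, was the tested marker of that list and was higher in WT31_P5IV (log2 fold change 1.45 ± 0.20 SE, adjusted p = 1.16e-05, edgeR). The leukocyte marker Ptprc had 0 to 2 counts in WT31 and 0 to 1 in WT31_P5IV, Adgre1 had at most 1 count, and the Kupffer cell marker Clec4f had 0 counts in all 10 libraries. Of the 8 stellate cell and fibroblast markers, 3 were tested and all 3 (Acta2, Col1a1 and Col1a2) were higher in WT31_P5IV, with a summed level of the list of 1.78 to 2.74 CPM in WT31 and 3.78 to 4.46 CPM in WT31_P5IV. The summed levels of the 7 hepatocyte markers were at most 1.18 CPM, with Krt18, Fabp1 and Serpina1a at 0 counts throughout. Alb had 0 counts in WT31 and 0 to 9 in WT31_P5IV, and Apoa1 had 0 and 0 to 4. Krt8 had at most 1 count. Ttr, the tested marker of this list, had 6 to 14 and 8 to 15 counts and was not called. With no filter beyond 1 count, Alb and Apoa1 were called higher in WT31_P5IV (adjusted p of 0.0251 and 0.0119, edgeR). The summed levels of the 7 endothelial markers were at most 0.492 CPM, with Cdh5 and Lyve1 at 0.

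Mst1r was nearly silent in WT31 and clearly expressed in WT31_P5IV. The 5 WT31 libraries held 20, 16, 20, 25 and 15 counts, and the 5 WT31_P5IV libraries held 413, 505, 467, 434 and 494. Every WT31_P5IV library was therefore above every WT31 library by more than an order of magnitude, and the spread within each line was small beside this gap. The mean level was 0.750 ± 0.159 CPM (SD, n = 5) in WT31 and 19.3 ± 1.72 CPM in WT31_P5IV, a log2 fold change of 4.69 ± 0.11 SE. Of the 13620 genes tested, 8 had a higher log2 fold change. The counts in WT31 were above the limit of detection in every library. Mst1r is also expressed by macrophages. The macrophage markers named above were at or near 0 in both lines apart from Cd68. Csf1r had 0 to 5 counts in WT31 and 1 to 5 in WT31_P5IV, and Itgam 0 to 2 and 1 to 3. Cd68 and the summed level of that list were higher in WT31_P5IV. Whether such cells contributed to the level of Mst1r was not tested. In bulk RNA, a gene used by fewer cells and a gene used at a lower level per cell cannot be told apart.

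Met, the receptor for Hgf, was expressed at a high level in both lines and was higher in WT31_P5IV. WT31 libraries held 162, 188, 174, 148 and 144 CPM, and WT31_P5IV libraries held 260, 300.1, 295, 233 and 322 CPM. The groups did not overlap, and the gap between the highest WT31 library and the lowest WT31_P5IV library was 188 against 233 CPM. The means were 163 ± 18.6 CPM and 282 ± 35.3 CPM (SD, n = 5 each), which is 1.73-fold, a log2 fold change of 0.79 ± 0.09 SE. The coefficient of variation between libraries of Met was 11.4% in WT31 and 12.5% in WT31_P5IV, which was larger than that of Kit (3.44% and 7.18%) or Erbb3 (3.88% and 5.08%).

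Erbb3, the neuregulin receptor, showed the same direction with a tighter spread. WT31 libraries held 157, 165, 160.1, 151 and 151 CPM, and WT31_P5IV libraries held 295, 306, 312, 273 and 292 CPM. All libraries of the subline were above all parental libraries. The log2 fold change was 0.92 ± 0.04 SE, which is 1.89-fold. Erbb2, its usual partner, named after its values were seen, had a log2 fold change of 0.94 ± 0.05 SE, so that the level of Erbb3 per length was 5.06 times that of Erbb2 in WT31 and 4.93 times in WT31_P5IV.

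Kit had the highest level of all the receptors and a modest difference. It measured 462, 495, 482, 460 and 459 CPM in WT31 and 613, 664, 647, 570 and 686 CPM in WT31_P5IV. The ranges did not overlap, and the log2 fold change was 0.43 ± 0.05 SE, which is 1.35-fold. Fgfr1, a receptor for fibroblast growth factors, measured 50.1, 47.4, 47.8, 47.5 and 57.1 CPM in WT31 and 78.1, 89.4, 82.3, 73.4 and 74.4 CPM in WT31_P5IV, a log2 fold change of 0.67 ± 0.06 SE. Its WT31 replicate 5 stood above the other 4 libraries of that line, yet below every library of the subline.

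Of the TAM receptors, Axl and Mertk differed in opposite directions. Axl was lower in WT31_P5IV, with 459, 493, 499, 449 and 502 counts in WT31 and 190, 191, 195, 173 and 188 counts in WT31_P5IV. The lowest WT31 library held more than the highest WT31_P5IV library by a wide margin. The means were 18.8 ± 0.97 CPM and 7.82 ± 0.34 CPM (SD, n = 5 each), a log2 fold change of -1.26 ± 0.06 SE, or a 2.40-fold lower level. Mertk measured 49.2, 55.0, 50.7, 46.0 and 45.2 CPM in WT31 and 68.4, 73.5, 72.5, 63.1 and 74.9 CPM in WT31_P5IV, a log2 fold change of 0.52 ± 0.06 SE. Tyro3, the remaining TAM receptor, which was on the list of other receptors, was higher in WT31_P5IV (log2 fold change 1.42 ± 0.04 SE, adjusted p = 2.39e-12, edgeR). As TPM, which divides each count by transcript length before scaling to the library, Axl made up 17.2% to 20.3% of the summed TAM level in the WT31 libraries and 4.18% to 5.30% in those of WT31_P5IV. Tyro3 made up 35.4% to 37.6% in WT31 and 55.5% to 58.0% in WT31_P5IV, and Mertk 43.8% to 47.4% and 36.7% to 40.3%. Mertk thus ranked first of the TAM receptors in every WT31 library, and Tyro3 in every WT31_P5IV library.

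The remaining 3 receptors were low in both lines, Pdgfra and Pdgfrb above the limit of detection in every library and Egfr in 2 of the 10. Pdgfra, a receptor for platelet-derived growth factors, had 34 to 44 counts in WT31 and 30 to 45 in WT31_P5IV, and the groups overlapped (log2 fold change -0.04 ± 0.15 SE). Pdgfrb had 6 to 23 counts in WT31 and 9 to 14 in WT31_P5IV, with overlap (log2 fold change -0.19 ± 0.32 SE). Egfr, the receptor for epidermal growth factor, had 0, 0, 6, 0 and 2 counts in WT31 and 1, 0, 4, 2 and 2 counts in WT31_P5IV, too few to be tested. A difference in Egfr was not detectable at this depth. Pdgfra and Pdgfrb are also made by fibroblasts and stellate cells, and both overlapped between the lines while Acta2, Col1a1 and Col1a2 were higher in WT31_P5IV. Whether such cells contributed to any of these levels was not tested.

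**Figure D1:**
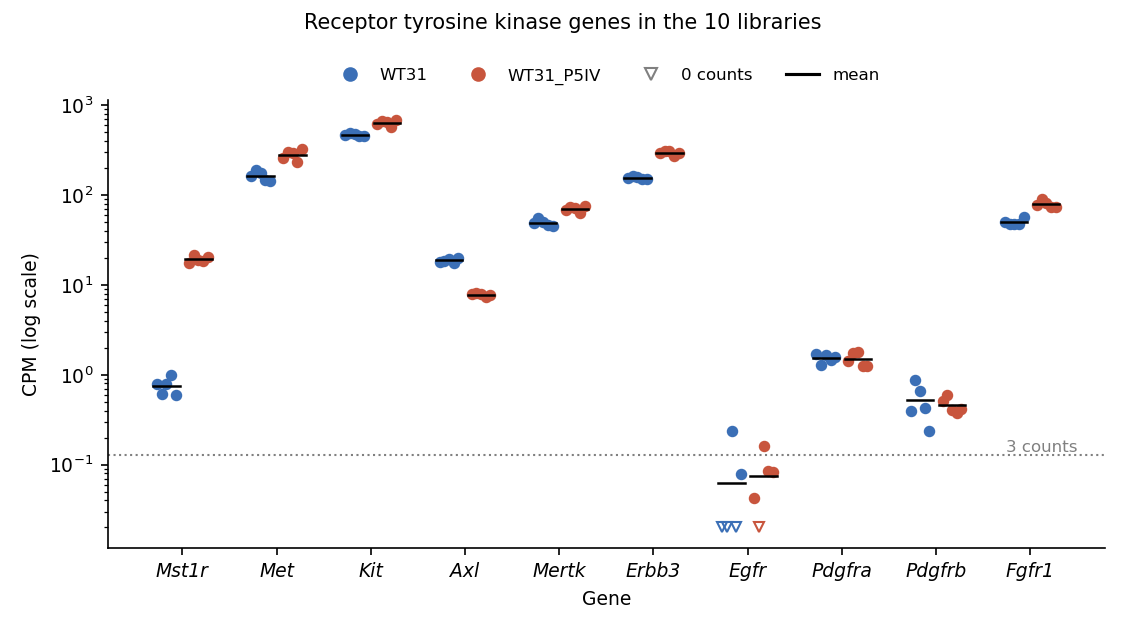
CPM on a log axis for each of the 10 receptor genes in the 5 WT31 (blue) and 5 WT31_P5IV (red) libraries, with black lines at the means, open triangles for libraries with 0 counts and a dotted line at the level of 3 counts. Mst1r had a mean of 0.750 CPM in WT31 and 19.3 CPM in WT31_P5IV, Axl had the opposite direction, and Egfr, Pdgfra and Pdgfrb overlapped between the lines.

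In all, 9 of the 10 receptors passed the filter on low counts. 7 of these 9 had groups that did not overlap, 6 higher and 1 lower in WT31_P5IV, where 54.1% of all tested genes had groups that did not overlap. Since the genes were chosen with these values known, nothing is read from that share. By size alone, Mst1r and Axl had log2 fold changes of at least 1 in either direction. Axl at -1.26 was the receptor just inside that size and Erbb3 at 0.92 the one just outside.

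Levels between the receptors were compared per length, as TPM. In WT31 the order was Kit (158 ± 4.07 TPM), Met (40.6 ± 6.57), Erbb3 (40.2 ± 2.70), Fgfr1 (20.3 ± 1.30), Mertk (18.1 ± 1.99), Axl (7.35 ± 0.22), Mst1r (0.810 ± 0.451), Pdgfra (0.576 ± 0.198), Pdgfrb (0.151 ± 0.076) and Egfr (0.011 ± 0.016), as mean ± SD of 5 libraries. The ranges of Met and Erbb3, of Fgfr1 and Mertk, and of Mst1r and Pdgfra overlapped, so the order within these pairs was not resolved. In WT31_P5IV Kit was again first (193 ± 13.3 TPM), followed by Erbb3 (67.2 ± 3.62) and Met (62.7 ± 8.0), whose ranges overlapped, and then by Fgfr1 (29.1 ± 2.37) and Mertk (23.1 ± 1.74). Mst1r came next with 12.3 ± 1.75 TPM and stood above Axl with 2.85 ± 0.31 TPM, the reverse of their order in WT31. Among all 58 receptor tyrosine kinases listed, Mst1r was at rank 24 in WT31 and 16 in WT31_P5IV and Axl at rank 16 and 21, while Kit was at rank 1 in both lines. Kit alone held 53.6% to 57.2% of the summed TPM of the 10 receptors in WT31 libraries and 48.5% to 50.2% in WT31_P5IV libraries.

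The TPM of Mst1r needs care, because estimated counts and TPM together showed that part of its level sat on short transcript models. Dividing the estimated count by TPM gives, after calibration on 502 genes with a single transcript of at least 1000 bases, the effective length of the transcripts that hold the reads, which is about 185 to 202 bases below the transcript length. For Erbb3, which has a single transcript of 6016 bases, the implied effective length was 5814 to 5831 bases in all libraries. For Mst1r it was 1487, 2528, 956, 1120 and 2390 bases in WT31 and 2189, 2007, 2410, 1713 and 2217 bases in WT31_P5IV, although the full-length model Mst1r-201 has 4722 bases in 19 exons. GENCODE M21 lists 2 short models, both annotated as retained introns, of 600 bases (Mst1r-202, chr9:107916224-107916904) and of 345 bases (Mst1r-203, chr9:107915003-107915728). The start of Mst1r-203 is the internal RefSeq start whose window is printed above. If the full-length model and either short model shared all reads, 3.11% to 16.4% of the Mst1r counts in WT31_P5IV and 2.71% to 36.0% in WT31 would lie on the short model. The full-length model would then hold 363 to 483 counts in the WT31_P5IV libraries and 12.8 to 22.4 in those of WT31, and its level would be 4.43 to 5.90 TPM against 0.169 to 0.284 TPM. On that basis Mst1r in WT31_P5IV would still lie above Axl and below Mertk. In WT31 it would lie below the 0.357 to 0.889 TPM of Pdgfra, but that level is not corrected for short models. The implied effective length of Pdgfra in WT31 was itself 0.436 to 0.897 of that of its longest transcript. The order of Mst1r and Pdgfra in WT31 was therefore not resolved. The ratio of the lines' mean levels of Mst1r was 25.7 as CPM and 15.2 as TPM, and TPM reads a shift towards short models as a change in level. The authors' transcript index may differ from GENCODE M21, so these shares are bounds under the M21 models only.

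For Mertk and Pdgfrb the implied lengths left little room for short models, and for Met, Kit, Axl and Fgfr1 they left more. The TPM levels of these receptors given above were not corrected for this. Relative to its longest transcript, the implied effective length was 0.888 to 0.942 for Met, 0.844 to 0.920 for Kit, 0.809 to 0.993 for Axl, 0.977 to 1.00 for Mertk, 0.997 for Pdgfrb and 0.732 to 0.768 for Fgfr1. Pdgfra ranged from 0.376 to 0.897, and its values in the lines overlapped. No 31-base word of Mst1r, Met, Kit, Axl, Mertk, Erbb3 or Pdgfrb occurred in transcripts of another gene, on either strand. Of the words of Pdgfra, 5.57% did, most of them in the antisense transcripts Gm42802 and Gm42803, and of Fgfr1 3.66%, most often in the antisense transcript Gm16159. Reads from the stretches shared with an antisense partner cannot be assigned without the strand of the reads.

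**Figure D2:**
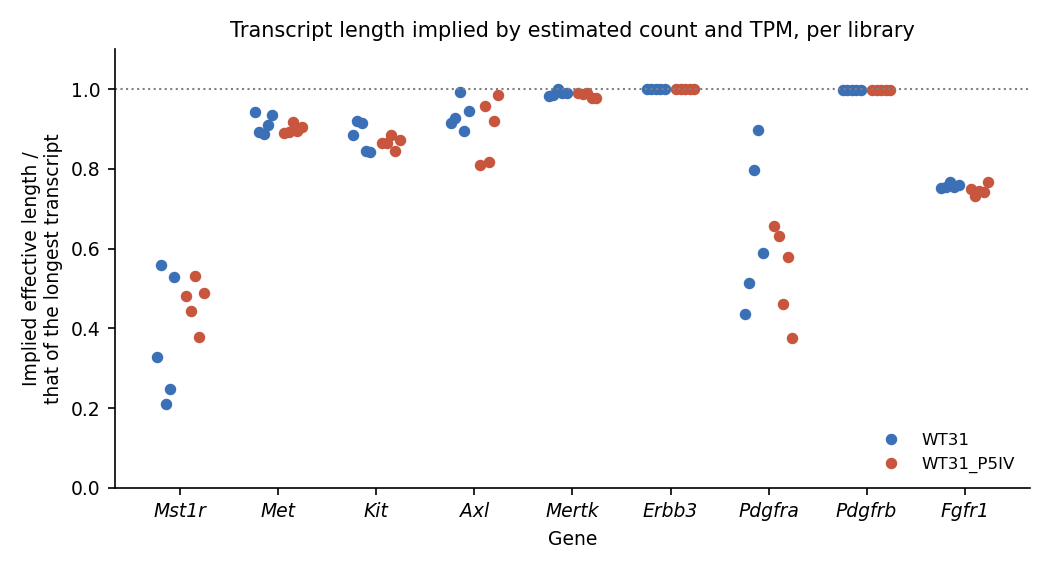
Effective transcript length implied by estimated count and TPM, divided by that of the longest annotated transcript, for each library of WT31 (blue) and WT31_P5IV (red), scaled so that Erbb3, with a single transcript, lies at 1. Mst1r lay between 0.212 and 0.559, below every value of the receptors other than Pdgfra, which ranged from 0.376 to 0.897.

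The other receptor tyrosine kinases were described from a list of 48 further genes. 22 of them passed the filter on low counts. Calls were made by edgeR's quasi-likelihood test with an adjusted p below 0.05, by which 14 of the 22 were higher in WT31_P5IV and 2 were lower. As shares of the tested genes of the list this was 63.6% higher and 9.09% lower, beside 34.6% higher and 33.9% lower among all tested genes, of which 68.5% were called in either direction. On log2(TPM + 0.1) the calls over all genes were 2915 higher and 5946 lower, against 4709 and 4618 on counts, and those of the list 11 higher and 2 lower. On counts with 1 library left out, 14 to 16 genes of the list were higher and 1 to 4 lower. Aatk, 1 of the 2 lower genes, had overlapping groups (adjusted p = 0.0475, edgeR). The median log2 fold change of the 22 genes was 0.58, against 0.01 over all tested genes. 4 genes were past the filter of the study, which asks for an adjusted p under 0.05 and a log2 fold change of at least 1 in size and which 9.19% of all tested genes passed, and all 4 were higher in WT31_P5IV. The count of 4 covers tested genes only. Ptk7, a pseudokinase coreceptor of Wnt signaling, went from 95 to 126 counts in WT31 to 1039 to 1138 counts in WT31_P5IV (log2 fold change 3.40 ± 0.07 SE, adjusted p = 3.54e-14, edgeR). Tyro3 is given above. Ephb4, an ephrin receptor, had a log2 fold change of 1.14 ± 0.04 SE (adjusted p = 2.46e-12, edgeR). Ltk, a relative of Alk, stayed low, with 4 to 9 and 19 to 28 counts (log2 fold change 2.24 ± 0.26 SE, adjusted p = 1.97e-06, edgeR).

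Among the 4 other receptors with the highest TPM, Ryk, a pseudokinase that binds Wnt proteins, fell from 93.3 ± 3.88 to 70.1 ± 1.65 TPM (SD, n = 5 each), with a log2 fold change on counts of -0.23 ± 0.03 SE (adjusted p = 1.21e-05, edgeR). Ror2, a receptor for Wnt5a, rose, with a log2 fold change of 0.85 ± 0.04 SE (adjusted p = 1.81e-10, edgeR), and Ddr1, a collagen receptor, rose with 0.50 ± 0.06 SE (adjusted p = 5.61e-06, edgeR). Of the 26 genes that were not tested, 17 had no more than 3 counts in any library, and Erbb4, Ros1 and Alk had 0 counts in all 10. Ephb6, a kinase-dead ephrin receptor left untested by the filter on low counts, had 0 to 2 counts in WT31 and 9 to 15 in WT31_P5IV, without overlap, and was called higher when no filter beyond 1 count was set (adjusted p = 5.69e-08, edgeR). Ephb2, with 6 to 15 and 1 to 8 counts and overlapping groups, was called lower in that fit (adjusted p = 0.0073, edgeR). Both were named after their values were seen.

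**Figure D3:**
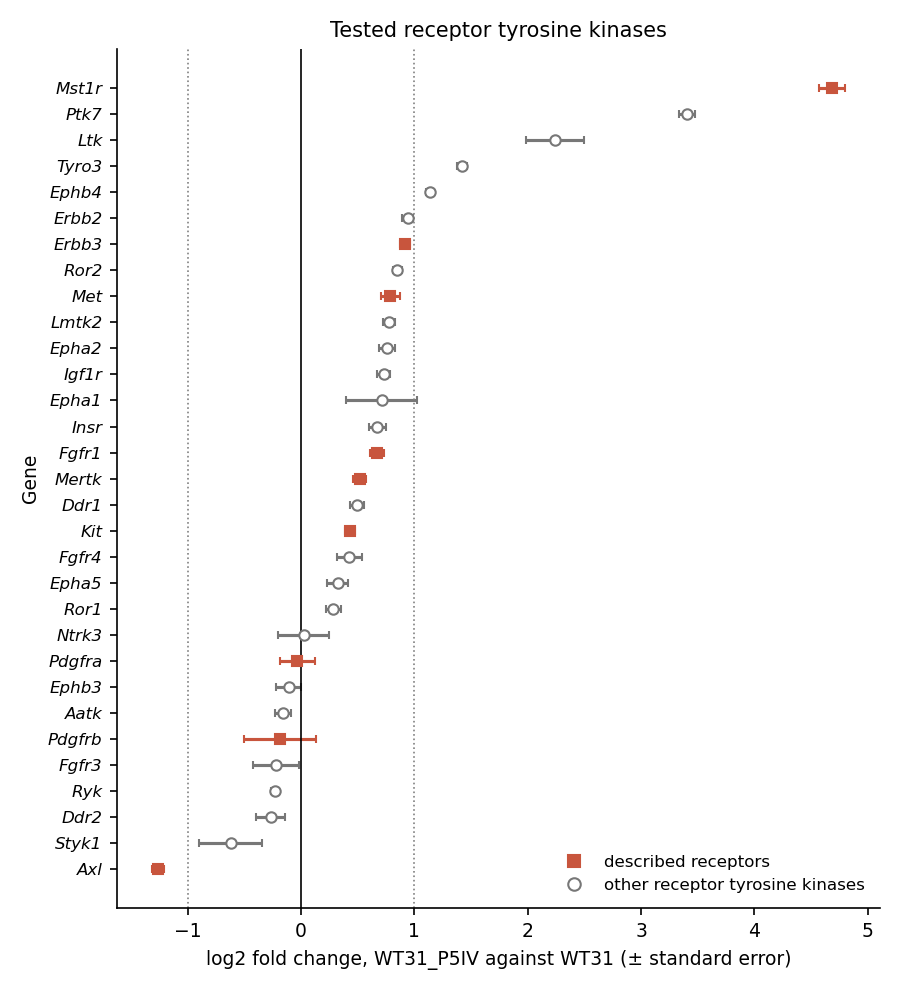
Log2 fold change of WT31_P5IV against WT31 with its standard error for the 31 tested receptor tyrosine kinases, with the described receptors as red squares, the others as open circles and dotted lines at -1 and 1. Mst1r was highest at 4.69, followed by Ptk7 at 3.40, and Axl was lowest at -1.26.

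Ligand genes ranged from no counts to levels like those of the receptors. Hgf, the ligand of Met, had 0 counts in all 10 libraries. Mst1, the ligand of Mst1r, had 0 to 1 counts in WT31 and 0 to 5 in WT31_P5IV. Kitl, which encodes stem cell factor, had 5 to 15 counts in WT31 and 0 to 5 in WT31_P5IV, while its receptor Kit held at least 11598 counts in each library. Of the TAM ligands, Pros1 was expressed at 20.3 ± 2.20 TPM in WT31 and 17.5 ± 1.76 TPM in WT31_P5IV, with overlapping groups (log2 fold change -0.05 ± 0.06 SE, adjusted p = 0.477, edgeR), and Gas6 had 0 to 2 counts in WT31 and 5 to 10 in WT31_P5IV, too few to be tested. Of the neuregulins that bind Erbb3, Nrg1 had 3 to 8 and 1 to 3 counts, and Nrg2 was at 7.20 ± 0.70 and 7.52 ± 1.37 TPM (adjusted p = 0.305, edgeR).

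Of the 28 ligand genes listed, 9 were tested, and 2 were higher and 5 lower in WT31_P5IV, with a median log2 fold change of -0.15. In all 77.8% of the tested ligands were called, 22.2% higher and 55.6% lower, beside 68.5%, 34.6% and 33.9% of all tested genes. Egfr itself had more than 3 counts in 2 of the 10 libraries, and its listed ligands differed in level. Areg had 0 counts in all libraries, Ereg at most 1, Btc 2 to 7 in WT31 and 2 to 6 in WT31_P5IV, and Epgn 0 to 7 and 0 to 8, all too few to be tested (named after their values were seen). Tgfa fell by 0.52 on the log2 scale (SE 0.04, adjusted p = 8.42e-08, edgeR) and Hbegf fell by 0.46 (SE 0.07, adjusted p = 6.34e-05, edgeR), while Egf, at 12 to 19 and 21 to 34 counts, rose by 0.85 on counts (SE 0.18, adjusted p = 8.71e-04, edgeR). As TPM, Egf was at 0.598 and 0.620, and it was not called on log2(TPM + 0.1) (adjusted p = 0.765, limma). Pdgfa, the ligand with the highest level, was at 39.6 ± 2.55 TPM in WT31 and 32.1 ± 2.15 TPM in WT31_P5IV (log2 fold change -0.15 ± 0.06 SE, adjusted p = 0.0313, edgeR). The call of Pdgfa was lost with upper-quartile scaling and without WT31_P5IV replicate 1, 2 or 5 (adjusted p of 0.0822, 0.0638, 0.0543 and 0.0773, edgeR). Pdgfc had a log2 fold change of -0.45 ± 0.09 SE (adjusted p = 3.15e-04, edgeR). Of the fibroblast growth factors, Fgf1 fell by 0.52 on the log2 scale (SE 0.07, adjusted p = 1.23e-05, edgeR). Of the tested ligands, Fgf2 was past the filter, with 8 to 18 counts in WT31 and 27 to 38 in WT31_P5IV (log2 fold change 1.32 ± 0.21 SE, adjusted p = 4.82e-05, edgeR). In the fit with no filter beyond 1 count, the untested ligands Kitl (lower, adjusted p = 0.0246), Gas6 (higher, adjusted p = 2.92e-05) and Fgf17 (higher, adjusted p = 0.04) were also called by edgeR, at the low counts given above for Kitl and Gas6 and at 0 to 2 and 1 to 5 counts for Fgf17.

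**Figure D4:**
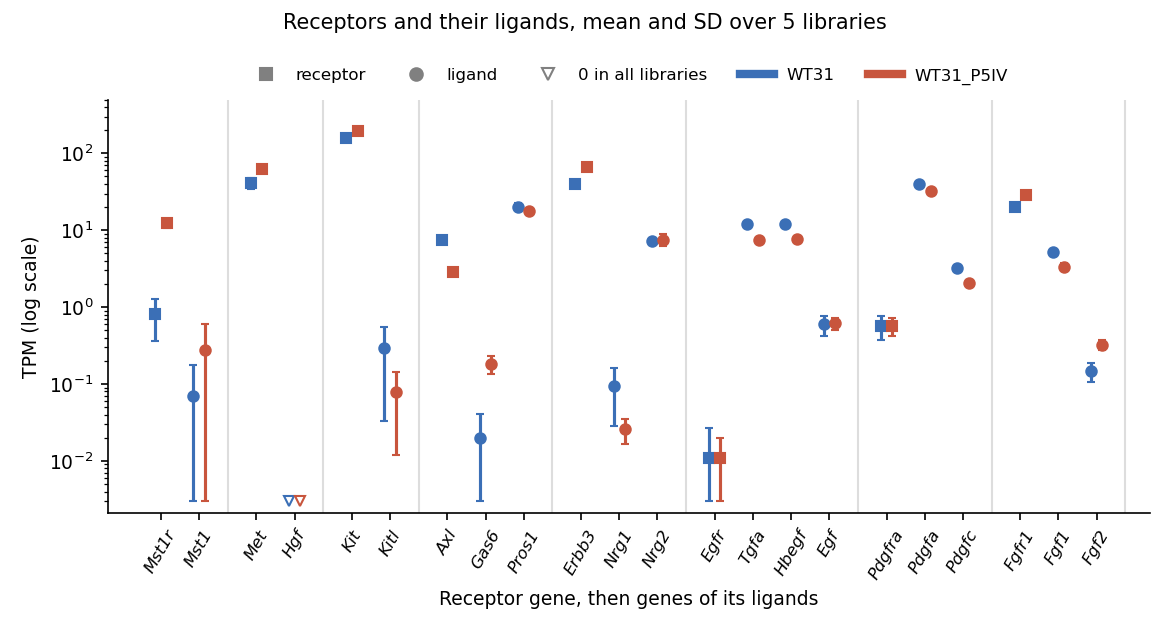
TPM on a log axis, as mean and SD over 5 libraries, of 8 receptor genes (squares) and genes of their ligands (circles) in WT31 (blue) and WT31_P5IV (red), with open triangles for a gene at 0 in all libraries and bars that would reach 0 drawn to the lower edge. Hgf was at 0, Mst1, Kitl, Gas6 and Nrg1 were each below 0.5 TPM, and Pros1, Tgfa, Hbegf and Pdgfa were each above 5 TPM.

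Hgf and Mst1 are secreted as inactive precursors that proteases such as Hgfac, St14 and Hpn cleave, Spint1 and Spint2 inhibit these proteases, and sheddases release receptor and ligand ectodomains. Of the 11 genes of this list, 3 were tested, and 2 were higher in WT31_P5IV and none lower, a called share of 66.7% beside 68.5% of all tested genes. Mmp14, a membrane-bound metalloprotease, had a log2 fold change of 0.36 ± 0.04 SE (adjusted p = 8.50e-07, edgeR), and Adam17, the sheddase of Egfr ligands, of 0.40 ± 0.06 SE (adjusted p = 3.95e-05, edgeR). Adam10 was at 88.5 ± 7.72 TPM and 84.3 ± 7.76 TPM, with a log2 fold change on counts of 0.11 ± 0.06 SE (adjusted p = 0.127, edgeR). Spint1 had 1 to 4 counts in WT31 and 7 to 17 in WT31_P5IV, and Spint2 had 6 to 16 and 2 to 13. Both were too low to be tested. In the fit with no filter beyond 1 count, Spint1 was called higher (adjusted p = 1.18e-05, edgeR), as was Hpn, at 0 to 3 and 2 to 11 counts (adjusted p = 0.00217, edgeR).

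Adaptors and enzymes carry the signal away from the receptors. Of the 36 genes listed, 33 were tested, and 4 were higher and 22 lower in WT31_P5IV, which is 12.1% and 66.7% of the tested genes of the list beside 34.6% and 33.9% of all tested genes, with a median log2 fold change of -0.23. Of the tested genes, 2 were past the filter. Grb14, an adaptor that binds and inhibits insulin and growth factor receptors, fell from 656 to 723 counts in WT31 to 239 to 339 counts in WT31_P5IV (log2 fold change -1.13 ± 0.07 SE, adjusted p = 4.70e-09, edgeR). Plcg2, a phospholipase C best known from blood cells, fell from 27 to 55 counts to 4 to 10 counts (log2 fold change -2.60 ± 0.28 SE, adjusted p = 1.15e-06, edgeR). Vav3 was left untested by the filter on low counts. It had 3 to 9 counts in WT31 and 0 in every WT31_P5IV library, and it was called lower with no filter beyond 1 count (adjusted p = 6.71e-06, edgeR). Of the genes with the highest TPM, the adaptors Shc1 and Shc4 fell by 0.43 (SE 0.03, adjusted p = 5.74e-08, edgeR) and 0.27 (SE 0.05, adjusted p = 4.07e-04, edgeR) on the log2 scale. Grb10, an adaptor related to Grb14, and the kinase Src had log2 fold changes of -0.00 ± 0.04 SE and 0.02 ± 0.03 SE with overlapping groups. On log2 TPM, a scale on which the median of all tested genes was shifted by -0.17 relative to counts, none of the 33 genes was higher with a pseudocount of 0.1 and 1 was with a pseudocount of 1, while 28 were lower with each. Over all genes, 2915 were called higher and 5946 lower with the pseudocount of 0.1.

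Other genes end receptor signaling. Of the 23 listed, which encode ubiquitin ligases, phosphatases, endocytic adaptors and inhibitors, 22 were tested, and 8 were higher and 11 lower, which is 36.4% and 50.0% of them beside 34.6% and 33.9% of all tested genes, with a median log2 fold change of -0.20. Eps15, an endocytic adaptor recruited by activated receptors, was the gene past the filter, with means of 175 ± 9.55 and 83.1 ± 2.51 CPM (SD, n = 5 each, log2 fold change -1.08 ± 0.04 SE, adjusted p = 2.63e-11, edgeR). Sh3kbp1, an adaptor of the ligase Cbl, fell by 0.56 on the log2 scale (SE 0.03, adjusted p = 2.81e-09, edgeR). Ptprj, a receptor-type phosphatase that acts on Met and other receptors, rose by 0.53 (SE 0.05, adjusted p = 4.04e-07, edgeR). Hgs, which sorts receptors to lysosomes, had a log2 fold change of -0.03 ± 0.06 SE (adjusted p = 0.685, edgeR).

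Of 18 coreceptors, surface proteins that present ligands to the receptors or pair with them, 14 were tested, and 8 were higher and 4 lower in WT31_P5IV (57.1% and 28.6%, beside 34.6% and 33.9% of all tested genes), with a median log2 fold change of 0.32. Plxnb1, a semaphorin receptor that pairs with Met and Mst1r, rose from a mean of 23.1 ± 1.66 to 58.7 ± 4.56 CPM (SD, n = 5 each, log2 fold change 1.35 ± 0.06 SE, adjusted p = 1.13e-10, edgeR), and its relative Plxnb2 rose by 0.87 on the log2 scale (SE 0.05, adjusted p = 6.21e-10, edgeR). Cd44, which has isoforms that present Hgf to Met, rose by 0.56 (SE 0.04, adjusted p = 4.14e-09, edgeR), and the glypican Gpc1 rose by 0.57 (SE 0.04, adjusted p = 1.08e-08, edgeR). Itga6, an integrin subunit, had overlapping groups and a log2 fold change of 0.18 ± 0.06 SE (adjusted p = 0.0143, edgeR), and it was not called on log2(TPM + 0.1) (adjusted p = 0.859, limma) or without WT31 replicate 1 or 4 (adjusted p of 0.0546 and 0.0572, edgeR). Nrp2, a semaphorin and growth factor coreceptor, fell from 79 to 146 counts to 14 to 21 counts (log2 fold change -2.48 ± 0.18 SE, adjusted p = 1.58e-08, edgeR), and Flrt3, which binds fibroblast growth factor receptors, fell by 1.25 on the log2 scale (SE 0.09, adjusted p = 1.04e-08, edgeR).

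The transcription factors that set melanocyte identity were given beside the receptors because Kit and Axl are commonly read with them. Of 11 listed, 10 were tested, and 1 was higher and 6 lower, with a median log2 fold change of -0.15. The called share was 70.0%, beside 68.5% of all tested genes. Mitf, the master regulator of pigment cells, had overlapping groups (346 ± 33.3 and 343 ± 11.8 CPM, SD, n = 5 each, log2 fold change -0.01 ± 0.06 SE, adjusted p = 0.840, edgeR). Sox10 and Pax3, the 1 gene of the list called higher, had overlapping groups and small log2 fold changes, of -0.14 ± 0.05 SE (adjusted p = 0.0373, edgeR) and 0.09 ± 0.03 SE (adjusted p = 0.0239, edgeR). Both adjusted p were near the threshold, and leaving out any 1 of several libraries removed the call. With 1 library left out, the log2 fold change was -0.18 to -0.11 for Sox10 and 0.07 to 0.10 for Pax3. The call of Sox10 was lost without WT31 replicate 4 or 5 or WT31_P5IV replicate 2, 3 or 5 (adjusted p of 0.0601 to 0.0775, edgeR), and that of Pax3 without WT31 replicate 1, 3, 4 or 5 or WT31_P5IV replicate 1, 4 or 5 (adjusted p of 0.057 to 0.117, edgeR). As TPM, Pax3 had a mean of 94.7 in WT31 and 90.0 in WT31_P5IV, so its direction depended on the scale. Zeb2 fell by 0.40 on the log2 scale (SE 0.06, adjusted p = 6.80e-05, edgeR). Snai2 fell by 1.53 (SE 0.09, adjusted p = 2.40e-09, edgeR), and Sox9, at 30 to 43 counts in WT31 and 13 to 23 in WT31_P5IV, fell by 1.03 (SE 0.20, adjusted p = 2.88e-04, edgeR), and these were the 2 genes of the list past the filter. Without WT31 replicate 5, or without WT31_P5IV replicate 1 or 3, Sox9 fell by 0.97, 0.95 and 0.94, short of the filter. On log2 TPM with either pseudocount 8 genes were lower and none higher. On log2(TPM + 0.1) the median of all tested genes was shifted by -0.17, and 2915 of all genes were called higher and 5946 lower.

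The genomic surroundings of the receptors were described next. Within 1 Mb of either end of Mst1r, 63 other genes were tested, with a median log2 fold change of 0.25, and 33 were higher and 11 lower. The called share was 69.8% (52.4% higher and 17.5% lower), beside 68.5% of all tested genes (34.6% and 33.9%). The median over the tested genes of chromosome 9 was 0.03. 7 neighbours (11.1%, beside 9.19% of all tested genes) were past the filter, all higher in WT31_P5IV. Bsn, a presynaptic scaffold gene 176 kb away, was the one with the highest log2 fold change, at 0.250 ± 0.130 and 1.68 ± 0.20 CPM (log2 fold change 2.75 ± 0.25 SE, adjusted p = 2.00e-07, edgeR), and the semaphorins Sema3f and Sema3b had log2 fold changes of 1.31 ± 0.10 SE and 1.12 ± 0.09 SE. The log2 fold change was 1.27 for Ccdc36, 1.06 for Klhdc8b, 1.06 for Gm37963 and 1.03 for Gm9917. With 1 library left out, these 4 genes fell short of a log2 fold change of 1, Ccdc36 without WT31 replicate 1 or WT31_P5IV replicate 1 (lowest value 0.94), Klhdc8b without replicate 5 of either line (0.97), Gm37963 without WT31 replicate 4 or WT31_P5IV replicate 1 or 2 (0.92) and Gm9917 without WT31 replicate 2, 4 or 5 or WT31_P5IV replicate 2 (0.83). The call of Ccdc36 was lost without WT31_P5IV replicate 1 (adjusted p = 0.0753, edgeR). Under the alternative ways of processing given below, all 7 neighbours fell short of 1 at their lowest. The lowest log2 fold change was 0.28 for Bsn, 0.89 for Sema3f and 0.59 for Sema3b. It was 0.20 for Ccdc36, 0.56 for Klhdc8b, 0.60 for Gm37963 and 0.23 for Gm9917. The nearest tested neighbours on each side, Mon1a and Traip, had log2 fold changes of 0.12 ± 0.08 SE and 0.28 ± 0.03 SE, far below the 4.69 of Mst1r.

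Met lies on chromosome 6 (chr6:17463800-17573980), and 7 other genes were tested within 1 Mb, with a median log2 fold change of 0.25. The tested genes of chromosome 6 had a median of 0.28, while the medians of the other members' chromosomes lay between -0.09 and 0.08. The value of Met was 0.51 above the median of its chromosome. Of the neighbours of Met, Tes, a focal adhesion protein, fell by 1.05 on the log2 scale (SE 0.04, adjusted p = 2.53e-11, edgeR) and Gm43843 rose by 1.11 (SE 0.23, adjusted p = 6.62e-04, edgeR), or by 0.94 without WT31 replicate 4. Under the alternative ways of processing, the lowest log2 fold change of Gm43843 was 0.60. Kit (chr5:75574916-75656722) and Pdgfra (chr5:75152292-75198215) are neighbours on chromosome 5, 377 kb apart, and their log2 fold changes were 0.43 and -0.04. Whether copy number moves with any of these values was not tested.

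**Figure D5:**
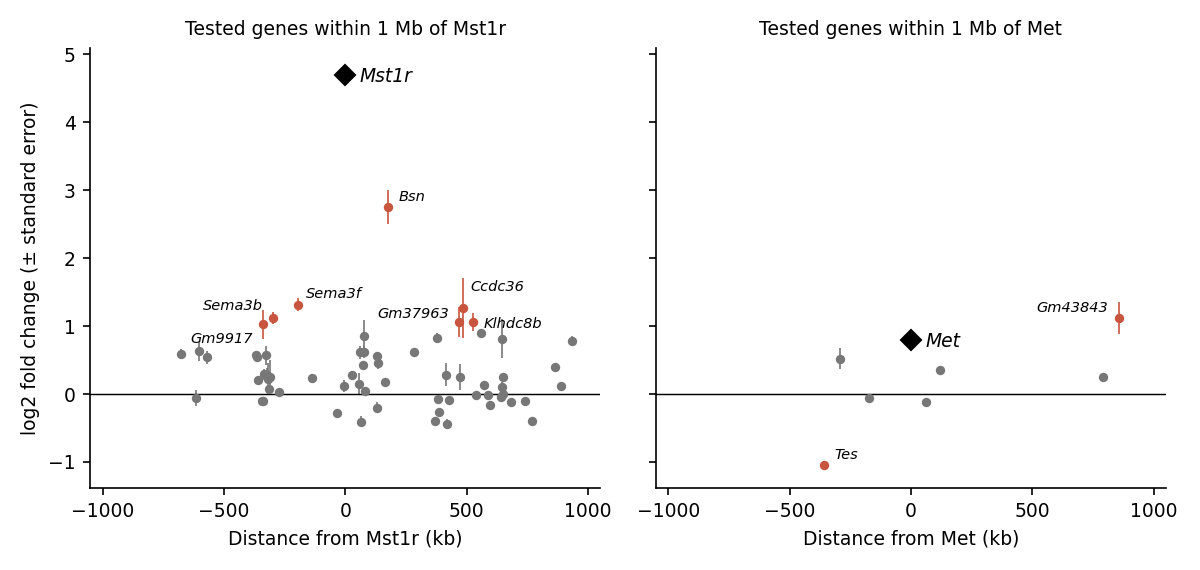
Log2 fold change with its standard error of the tested genes within 1 Mb of Mst1r (left) and Met (right), plotted by distance in kb from the gene's ends, with genes past the filter in red and the receptors as black diamonds. Mst1r at 4.69 stood above its 63 tested neighbours, of which Bsn at 2.75 was the highest, while Met at 0.79 lay within the range of its 7 neighbours.

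The genes whose levels followed each of 3 receptors most closely were found from the root mean square difference of mean-centred log2 CPM, with a prior count of 2, over the 10 libraries. Nearest to Mst1r were Apoe, which encodes apolipoprotein E (0.22), the zinc finger gene Plagl1 (0.28) and Cyth4, a guanine nucleotide exchange factor (0.38). Apoe rose from 16.0 ± 1.66 to 474 ± 27.8 CPM and Plagl1 from 1.25 ± 0.06 to 40.9 ± 1.61 CPM. Nearest to Met were Amer1 (0.07), Xylt1 (0.08) and Unc5c (0.08), and nearest to Kit were Dnajc1 (0.03), Abcc4 (0.03) and Tnfrsf19 (0.03). In these 10 libraries the measure is set mainly by the difference between the lines.

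Within each line, single libraries were lowest or highest for several receptors. WT31_P5IV replicate 4 had the lowest level of 7 of the 9 tested receptors, where 23.7% of all tested genes were lowest in that library of the line. It was also the library with the fewest estimated counts. In WT31, replicate 5 had the lowest level of 6 of the 9, against 26.2% of all tested genes, and replicate 2 the highest level of 5 of the 9, against 26.6%. Those lowest in WT31 replicate 5 were Mst1r, Met, Kit, Mertk, Erbb3 and Pdgfrb, while Axl and Fgfr1 were highest there. The part of library size in these differences was not tested.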

How the data were processed

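RNA was sequenced from cultured WT31 and WT31_P5IV cells, 5 libraries each. The authors trimmed the reads with Trim Galore (0.6.4 in the submitters' processing notes), quantified them with kallisto against transcripts of GRCm38.p6 and summed the values per gene, and they deposited estimated counts and TPM for 55385 identifiers. The version of kallisto is written differently in the sources used here (0.4.6 in the notes), and the labels name instruments of 2 makers. Identifiers were matched to GENCODE M21 (55144 found). Replicate numbers are those of the sample titles. The descriptions of the WT31 samples number them otherwise and skip a number, so the replicate block rests on the titles alone.

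Estimated counts were rounded, filtered with filterByExpr, scaled by TMM and compared in edgeR 4.0.16 (quasi-likelihood test) under R 4.3.3. Benjamini-Hochberg adjustment covered the 13620 genes tested. Log2 fold changes are without a prior count, and their SE was taken from the size of the change and the F statistic (its square root as divisor). Genes with an adjusted p under 0.05 were called. CPM are on scaled library sizes. TPM were tested only as an alternative, with limma 3.58.1 on log2(TPM + 0.1) and log2(TPM + 1). Other alternatives were DESeq2 1.42.0, upper-quartile scaling, limma voom after TMM, voom with neither scaling nor filter, 2 filters on low counts, the replicate number as a block, and leaving out each library. In counts simulated from these libraries, 200 genes were changed and the rest left unchanged. There edgeR found 76% of changes of 0.5, 94% of 1 and 98% of 2 and of 4 on the log2 scale, with 4 false calls in 13462 genes. In the data 68.5% of tested genes were called, so these rates hold for a setting with far fewer changes. All pairs of libraries of a line differed by more than sampling noise (chi-square per gene of at least 2.37).

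The receptors and the gene lists were chosen with earlier results of these data known. Named genes are the receptors, list genes past the filter or among the 4 highest in TPM, ligands set beside their receptor, the 3 genes most like Mst1r, Met and Kit, and genes past the filter within 1 Mb of Mst1r or Met. Sequencing reads, and whether counting used their strand, were not used here. Scripts ran under Python 3.11.15, numpy 2.4.6 and pandas 2.3.3.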

Additional observations from a re-analysis of the deposited data

Results flagged for a closer look

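In WT31, Fgfr1 of replicate 5 stood apart from the other libraries of its line, at 57.1 CPM where the other 4 lay between 47.4 and 50.1 CPM. The gap to the next library was 0.718 of the whole range, above Dixon's critical value of 0.71 for 5 samples. Without this library the log2 fold change of Fgfr1 was 0.71. Nrg2 of WT31 replicate 2 stood below the others of its line, at 6.74 CPM where they lay between 8.47 and 9.09 CPM, a gap of 0.736 of the range, and without it the log2 fold change of Nrg2 was 0.02. Shc1 of WT31_P5IV replicate 1 stood above the others, at 152.7 CPM where they lay between 147.5 and 148.9 CPM, a gap of 0.726 of the range, and without it the log2 fold change of Shc1 was -0.44. These were 3 cases in 138 groups checked (69 genes in each line), where chance alone gives about 1 in 20.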

How the results depend on the processing

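All 9 tested receptors were refitted under 19 other settings, and 157 of 170 log2 fold changes moved by less than 1 SD between libraries. The log2 fold change of Mst1r was 4.69, 3.92 when limma was run on log2(TPM + 0.1), 2.90 with the pseudocount of 1 in place of 0.1, and 4.60 to 4.79 when 1 library was left out. Leaving out 1 library gave 0.73 to 0.84 for Met. TPM moved the median of all tested genes by -0.17 and -0.16, and relative to this shift Met was at 0.80 and 0.78, Kit at 0.45 and 0.44, Mertk at 0.52 and 0.50, Erbb3 at 0.91 and 0.89 and Fgfr1 at 0.68 and 0.66, and Axl at -1.17 and -0.96, against -1.26 on counts. Calls over all genes split into 2915 higher and 5946 lower on log2(TPM + 0.1), against 4709 and 4618 on counts. The sign of Pdgfra and Pdgfrb, which were near 0, changed with the setting. Genes past the filter numbered 1251, and 2513 with limma voom without scaling or filter, 2332 with no filter beyond 1 count, 701 with at least 10 counts in every library and 465 on log2(TPM + 1), of which 147 were higher and 318 lower. More or fewer genes were tested under the first 3 of these. Of the 2 genes called among proteases and sheddases, the count was 4 with limma voom without scaling or filter and 4 with no filter beyond 1 count, since more genes were tested. With the replicate block, 9380 genes were called in place of 9327, with 15 in place of 16 among the other receptors, 3 in place of 2 among proteases and 27 in place of 26 among adaptors, and the counts of the other lists did not change. Libraries with the same number correlated between -0.096 and 0.178 in their deviations and matched their own number best in 2 of 5 cases. No clear pairing by the numbers of the titles was thus seen, though so few numbers cannot exclude one. Pairing by the other numbering in the descriptions was not tested. The 13 list genes past the filter stayed called in the same direction under all 244 fits that gave them a value, but not always past the filter. On log2(TPM + 1), Ephb4 was at 0.92, Ltk at 0.52, Fgf2 at 0.21, Plcg2 at -0.57, Nrp2 at -0.80 and Sox9 at -0.32. On log2(TPM + 0.1), Ephb4 was at 0.96, Fgf2 at 0.79 and Sox9 at -0.95. Sox9 was at -0.997 with upper-quartile scaling and at -0.94 at the nearest to 0 with 1 library left out. Of the other 46 named or marker genes fitted, 824 of 870 values kept their direction and side, and 13 genes had a change. On log2(TPM + 0.1) and log2(TPM + 1), Pax3 turned to -0.073 and -0.072 and Src to -0.11 in both, Grb10, Hgs and Mitf were called lower (-0.17, -0.20 and -0.20 in both), and Egf, Itga6, Traip and Gm9917 were not called. Ccdc36 was not called on log2(TPM + 1). With upper-quartile scaling, Sox10 and Pdgfa were not called and Adam10 was called higher (0.13), as Adam10 was with the replicate block (0.10) and without WT31_P5IV replicate 4 (0.14). Without scaling or filter, or with no filter beyond 1 count, Itga6 and Pax3 were not called. The count of called lineage genes was 5 to 8 with 1 library left out. Depth limits Egfr and the low ligands, for which differences were not detectable or not tested.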
